A study of Mus musculus with 2 samples.

Results

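The heat shock proteins and the DnaJ chaperones were followed in liver RNA from apoE-KO mice, which lack apolipoprotein E and are hypercholesterolemic even on normal chow. The members were all non-control probes whose gene name on the array begins with Dnaj, or with Hsp followed by a digit or by one of the letters a to e or h. Hspa5 and Dnajb9 were left out of the group and are read here with the genes of the unfolded protein response. Other members that act in the ER, such as Hsp90b1, Dnajc3 and Dnajb11, stayed in the group. This gave 61 genes with 121 probes, out of 27962 gene names and 41174 probes on the array. Of these, Hspc171 (current symbol Tmem208) is not a chaperone by its description, and Hspbap1 is a partner of a small HSP.

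Every mouse was a male apoE-KO of the C57BL/6 strain that was 10 weeks of age when the feeding began. The control group received normal chow and the other group the same chow with 1.25% Chol (high-Chol diet), each for 1 week, so the gene deletion was shared by both groups, and wild-type liver was not analysed here. Gene expression was measured in 3 independent experiments at each diet by one-color Agilent arrays, in which the RNA is copied into Cy3-labeled cRNA and the fluorescence of each spot is scanned. The labels do not give the number of mice behind an experiment, so the spread between arrays may be that between animals, between pools or technical. The arrays are called NC1 to NC3 (normal chow) and HC1 to HC3 (high-Chol diet).

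All values below are log2 signals, that is, the log2 of the background-subtracted intensity relative to the 75th percentile of the same array. A value of 1 is a doubling of that percentile, and a difference is always high-Chol diet minus normal chow. The level of one probe cannot be set against that of another, because probes differ in their brightness per transcript. NC1 to NC3 and HC1 lay on slide 1 and were read with software version 9.5, while HC2 and HC3 lay on slide 2 and were read with version 9.1. The probes well above background made up 50.5% to 63.0% of the spots of a control array and 62.1% to 67.2% of those of a high-Chol array, and no spot of a member was saturated (0 spots). The only comparison within a slide was therefore HC1 against normal chow, and it is given here as the slide 1 difference.

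Heat shock proteins hold unfolded proteins in solution, refold them or pass them on for degradation. HSP70 binds short stretches of an unfolded chain in a cycle driven by ATP, J proteins (DnaJ or HSP40) bring clients to HSP70 and start the hydrolysis, and HSP110 releases the nucleotide so that the client can leave. HSP90 acts later on signaling proteins and receptors, small HSPs hold clients without ATP, and HSP60 with HSP10 forms a folding chamber in mitochondria. The inducible members are switched on by heat shock factor 1 through heat shock elements in their promoters. In liver they serve a tissue with a heavy load of newly made proteins, including the apolipoproteins of VLDL.

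No heat shock protein or DnaJ gene passed the test for a diet difference. Of the 61 genes, 56 passed the filter on dim signals, that is, 1 or both diets had each of their arrays well above background, and they were tested among 16725 genes in all. Limma with adjustment over all genes called 0 of 56 members higher, where 2.69% of all genes were called higher, and 0 of 56 lower, where 0.227% of all genes were called lower. At an unadjusted p under 0.05, limma gave 4 members higher (12.3% of all genes) and 9 lower (8.83% of all genes). Of the 4 higher, Hspb7 and Dnajb13 were not well above background on each normal chow array. The lowest adjusted p of a member was 0.096, for Dnajb12. When HC1 was left out, so that diet and slide coincided, limma called 4 of 55 members lower (Dnajb12, Dnajb8, Dnajc5 and Hspb8), where 4.56% of all genes were called lower, and 1 higher (Hspb9), where 13.9% were called higher. The t-test of the methods gave 11 of 55 members lower (8.31% of all genes) and 1 higher (8.4% of all genes) at an unadjusted p under 0.05. These counts do not show that the diets were alike, because the 95% interval of the difference (called the interval below) reached past 1.5-fold on at least 1 side for 45 of the 56 members.

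Without a call for any gene, the members as a group lay slightly toward lower values on the high-Chol diet. The difference was below 0 in 39 of 56 members (69.6%), against 52.2% of all genes tested. Their median difference was -0.18, and that of all genes was -0.02. The sign of this distance depended on the background correction, since with a normexp background the members' median was -0.05 and that of all genes was -0.11, so that the members lay above it. Scaling to the median of each array moved the median of all genes to -0.26, and the members stayed 0.16 below it. On slide 1 alone, 38 of 56 members were below 0 (58.2% of all genes), with a median of -0.09 beside -0.06 for all genes. The high-Chol side of each slide 1 value is the single array HC1, and its standard error and p take the spread from the other arrays and so assume that HC1 varies like them.

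The diets did not overlap in 14 of the 55 members with a value on all 6 arrays in the lower direction, where the share over all genes was 14.0%, and in 2 in the higher direction, where it was 11.9%. In 12 of these 14 genes HC1 was the highest of the high-Chol arrays, which put it closest to the normal chow arrays of its own slide, and in the other 2 (Hsp110 and Dnaja1) it was the lowest. A fold above 1.5 was reached by 2 members upward (15.4% of all genes) and by 5 downward (5.84% of all genes). Among these, Hspb7 (upward) and Dnajb8 (downward) were not well above background on each array, so their folds have no exact size. Over all members tested, the median distance from the normal chow mean was -0.09 on HC1, -0.38 on HC2 and -0.19 on HC3, while over all genes it was -0.06, -0.01 and 0.01. Diet and slide cannot be told apart in HC2 and HC3.

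**Figure D1:**
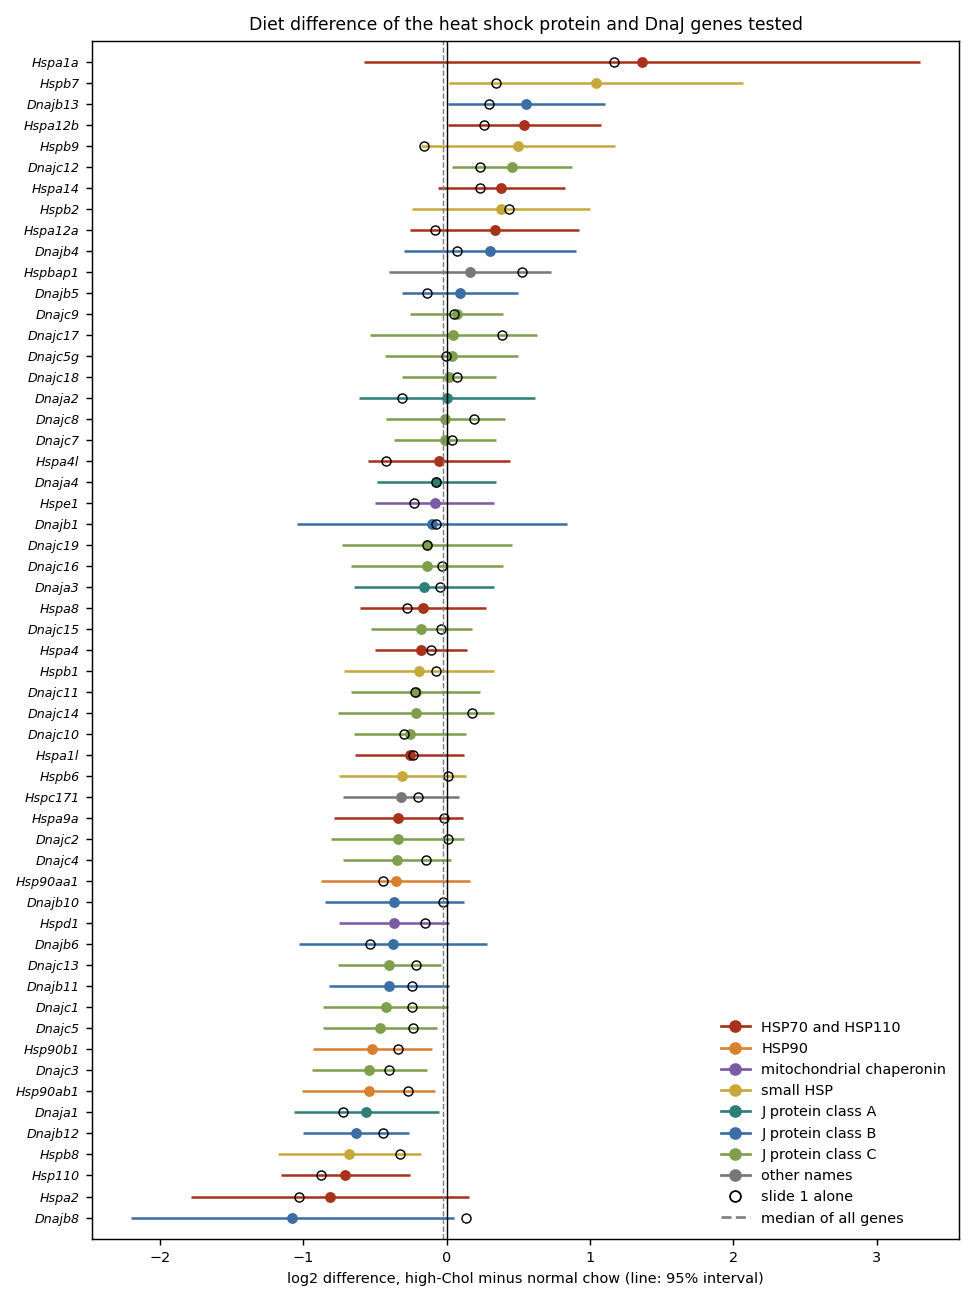
Log2 difference between the high-Chol diet and normal chow (x axis) for each of the 56 genes tested (y axis), colored by family, with its 95% interval from limma as a line. Open circles give the difference on slide 1 alone and the dashed line the median of all genes. Most points lie left of 0, from Dnajb8 at -1.07 (not well above background on HC2 and HC3) to Hspa1a at 1.36, and the open circle of Dnajb8 lies on the other side of 0.

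Among the genes of the HSP70 family, which bind unfolded chains, 7 of 11 were below 0, with a median of -0.16. Hsp110 (current symbol Hsph1), the nucleotide exchange factor of HSP70, was the family's clearest case. Its probe is placed by the array annotation on chromosome 5 at 148550005 to 148550064, minus strand, and the build of that annotation is not given in the sources used here. Its log2 signals were 3.80, 4.21 and 3.93 with normal chow but 3.10, 3.55 and 3.17 with the high-Chol diet. Each high-Chol array lay below each normal chow array, and the array of slide 1 was the lowest of all. The difference was -0.71 (SE 0.19), a signal 1.63-fold lower, with an adjusted p of 0.116 in limma. The slide 1 difference was -0.88 (SE 0.25).

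The major constitutive members of the family differed less. Hspa8, the HSC70 of the cytosol, gave 6.20, 6.72 and 6.65 on normal chow, and 6.24, 6.48 and 6.34 after the high-Chol diet, with overlap and a difference of -0.16 (interval -0.61 to 0.28). Its second probe gave 5.19, 5.27 and 5.59 against 5.15, 4.77 and 4.68, without overlap and with a difference of -0.49. Both Hspa8 probes are placed by the array annotation on a chromosome other than that of the gene in RefSeq, so their origin is less certain than that of the others. Hspa9a (current symbol Hspa9), the HSP70 of the mitochondrial matrix, was at 5.58, 5.85 and 5.83 on normal chow. After the high-Chol diet it was at 5.74 on slide 1 and at 5.26 on both arrays of slide 2, so that its difference of -0.34 (SE 0.19) came to -0.02 on slide 1 alone. Hspa4, a relative of HSP110, differed by only -0.18 (SE 0.14) but without overlap (2.38, 2.31 and 2.38 against 2.25, 2.12 and 2.17). Its other probes gave -0.36 and 0.04, both with overlap.

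The heat-inducible Hspa1a had the highest difference of all members and the widest spread. Its log2 signals were -2.32, -1.36 and 0.48 on normal chow, and 0.10, 1.59 and -0.80 after the high-Chol diet, and the normal chow arrays alone ran from the lowest value of all to one above both HC1 and HC3. The difference was 1.36 (SE 0.82, interval -0.58 to 3.30), or 2.57-fold, with an adjusted p of 0.365 in limma. It was 1.17 (SE 1.24) on slide 1. Its size hung on single arrays, at 0.71 without HC2, 0.74 without NC1 and 2.13 without NC3, and it was 0.57 with a normexp background.

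Hspa1a was read by 4 probes, all on chromosome 17 and on the minus strand in the array annotation. The pair that carries only the Hspa1a transcript, at 33066911 to 33066970 and 33066941 to 33067000, gave differences of 1.36 and 1.26. The other pair, at 33067263 to 33067322 and 33068671 to 33068730, also lists the transcript of Hspa1b and gave 0.35 and 0.51, although the last of these probes was well above background on only 1 of 3 normal chow arrays. Hspa1a and Hspa1b are near-identical copies and no probe carries the name Hspa1b, so the share of each in these signals is uncertain. For each of the 4 probes NC3 was the highest normal chow array and HC2 the highest high-Chol array, and their diets overlapped.

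Dnajb1, the HSP40 that is induced together with Hspa1a by heat, had the same arrays at its extremes. It was at 3.36, 4.07 and 4.73 on normal chow but at 3.98, 4.46 and 3.41 after the high-Chol diet. NC3 was again the highest normal chow array and HC2 the highest high-Chol array, while NC1 and HC3 were the lowest of their diets, as for Hspa1a. The diets overlapped almost completely, with a difference of -0.10 (SE 0.40, interval -1.04 to 0.84). The second Dnajb1 probe gave -0.39, also with overlap. Dnajb4, another cytosolic partner of HSP70, was at 1.95, 2.31 and 2.86 against 2.45, 2.85 and 2.72, also with NC3 and HC2 at the top of their diets. These peaks were not particular to the chaperones. Of the erythroid markers tested, Hba-a1 and Hbb-b1 were also highest on NC3 and HC2 in their diets, but Alas2 was not. The cause was not tested.

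**Figure D2:**
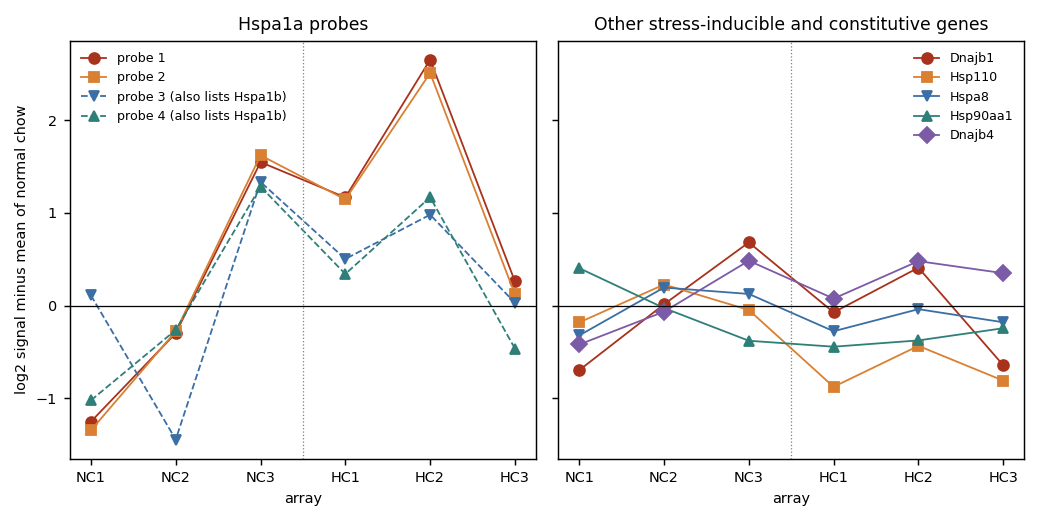
Log2 signal of each array minus the mean of normal chow (y axis) on the 6 arrays (x axis), for the 4 Hspa1a probes on the left (dashed where the probe also lists Hspa1b) and for 5 other members on the right. Lines join the values of a probe or gene and do not mean an order of the arrays. Each Hspa1a probe and Dnajb1 are highest in their diets on NC3 and HC2, and 3 of the 4 Hspa1a probes and Dnajb1 are lowest on NC1, while Hsp110 is low on each high-Chol array.

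The other members of the HSP70 family were mainly dim or variable. Hspa2, known from testis, was at -2.44, -0.77 and -1.27 on normal chow but at -2.52, -2.37 and -2.02 after the high-Chol diet, with NC1 among the high-Chol values and a difference of -0.81 (interval -1.78 to 0.16). Hspa12b, a distant relative known from endothelium, was at -2.18, -2.65 and -1.97 against -2.00, -1.60 and -1.57, a difference of 0.54 (adjusted p = 0.233). That difference was 0.26 on slide 1 and -0.039 with a normexp background. Hspa14, which works at the ribosome, was 1 of the 2 members without overlap in the higher direction, with 3.24, 3.22 and 2.92 on normal chow, and 3.36, 3.37 and 3.80 after the high-Chol diet. Its difference was 0.38 (SE 0.19, adjusted p = 0.283). Hspa12a (0.33), Hspa1l (-0.26) and Hspa4l (-0.05) had intervals that held 0, and Hspa12a was well above background on 2 of 3 normal chow arrays.

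The difference was below 0 in each of the 3 HSP90 genes, with a median of -0.52 but no call, and each gene kept a negative difference on slide 1 and in every alternative computed. Hsp90ab1, the constitutive HSP90 of the cytosol, was at 6.48, 6.15 and 6.04 on normal chow but at 5.95, 5.59 and 5.50 after the high-Chol diet. Hsp90b1 (GRP94), the HSP90 of the ER, was at 7.06, 6.63 and 6.81 against 6.50, 6.25 and 6.20. Neither gene overlapped between the diets. The differences were -0.54 (SE 0.20, adjusted p = 0.191) and -0.52 (SE 0.18, adjusted p = 0.175), and -0.27 and -0.34 on slide 1. Their second probes gave -0.40, with overlap, and -0.50, without. Hsp90aa1, the inducible HSP90 of the cytosol, was at 6.20, 5.77 and 5.42 against 5.35, 5.42 and 5.55, with HC3 above NC3 and a difference of -0.35 (interval -0.87 to 0.16, adjusted p = 0.375).

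**Figure D3:**
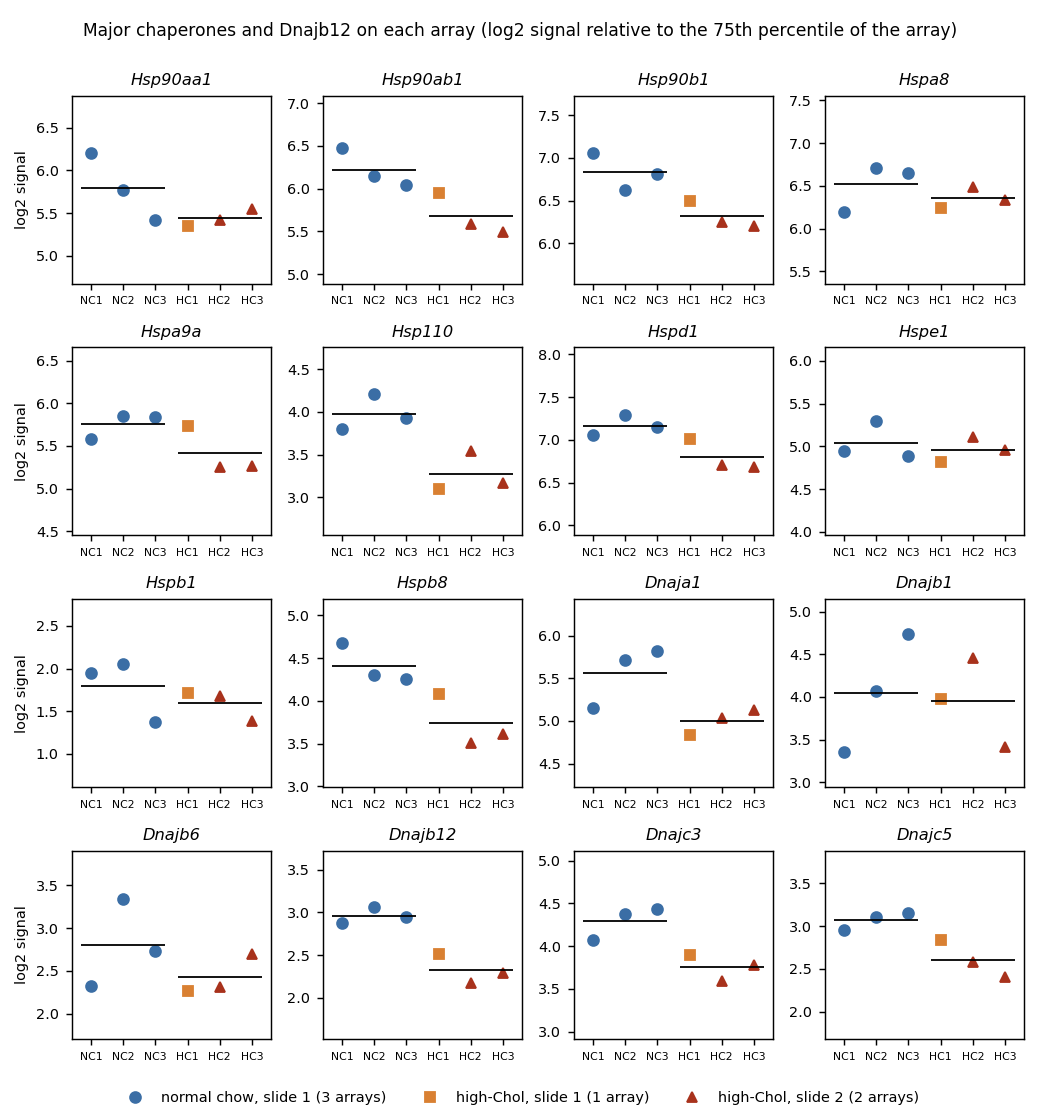
Log2 signal (y axis, the same length of scale in each panel) of 16 genes on the 6 arrays (x axis), the major chaperones other than Hspa1a and, in addition, Dnajb12, the member of lowest adjusted p, with the mean of each diet as a line. Circles are normal chow, the square is the high-Chol array on slide 1 and triangles are those on slide 2. Hsp90ab1, Hsp90b1, Hsp110, Hspd1, Hspb8, Dnaja1, Dnajb12, Dnajc3 and Dnajc5 have each high-Chol array below each normal chow array, whereas the arrays of Hsp90aa1, Hspa8, Hspa9a, Hspe1, Hspb1, Dnajb1 and Dnajb6 overlap.

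The mitochondrial folding chamber is made of Hspd1 (HSP60) and its lid Hspe1 (HSP10). Hspd1 was at 7.05, 7.29 and 7.15 on normal chow but at 7.01, 6.71 and 6.68 after the high-Chol diet, without overlap but with HC1 just below NC1. Its difference was -0.37 (SE 0.16, adjusted p = 0.250), and its second probe gave -0.14 with overlap. Hspe1 was at 4.94, 5.30 and 4.89 against 4.82, 5.11 and 4.95, a difference of -0.08 (interval -0.50 to 0.33). Both genes lie head to head and share a promoter, and the sequence between their starts is shown because it holds a match to the letters of the heat shock element in the promoter windows of both.

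Heat shock elements are inverted repeats of the unit GAA, and both GAANNTTCNNGAA and TTCNNGAANNTTC were searched, each the reverse complement of the other, so both strands were covered. The search ran over RefSeq promoter windows of the GRCm38.p6 build, 250 bases before to 50 bases after each start, and each gene was counted once. Of the 49 members with a window, 4 (8.16%) held such a match, against 179 of 27025 genes (0.662%). These were Dnajb6, Hsp110, Hspd1 and Hspe1, and the match of Hsp110 lay at or past the start, so its sequence is not printed. Hspd1 and Hspe1 hold the same bases, which were counted for each gene. Members without a window, among them Hspa8, Hspa9a, Hsp90aa1, Hsp90ab1 and Dnajc5, were not searched. The shorter GAANNTTC or TTCNNGAA, which every longer match contains, was found in 14 of 49 members (28.6%) and in 17% of all genes. Below, capitals mark the bases of the longer match.
Hspe1, plus strand, chr1:55088053-55088082: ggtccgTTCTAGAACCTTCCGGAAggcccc
Hspd1, minus strand, chr1:55088053-55088082: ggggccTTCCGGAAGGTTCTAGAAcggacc
Dnajb6, plus strand, chr5:29735832-29735884: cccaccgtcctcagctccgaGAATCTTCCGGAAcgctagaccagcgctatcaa

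The first 2 lines are the same bases read from either strand, with 2 overlapping matches that together run from 89 to 72 bases before the Hspe1 start. For Hspd1 they lie 144 to 127 bases before 1 of its starts and past another. The match of Dnajb6 ended 34 bases before the nearer of its starts. The differences of these genes are given with each of them, and that of Hspe1 (-0.08) was 0.17 with a normexp background. A match of letters is a description and not a measured site, and Hspa1a, Dnajb1 and Hspb1 held no longer match in these windows.

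The small HSPs were split, with 3 of 6 genes below 0 and a median of 0.09. Hspb8, a partner of Bag3 in the disposal of aggregates, was at 4.67, 4.30 and 4.26 on normal chow but at 4.09, 3.51 and 3.61 after the high-Chol diet, without overlap. Its difference was -0.68 (SE 0.21, adjusted p = 0.156), or 1.60-fold lower, and -0.33 on slide 1. Hspb1 (HSP25), the heat-inducible small HSP, was at 1.95, 2.05 and 1.37 against 1.72, 1.68 and 1.39, a difference of -0.19 (interval -0.72 to 0.33). Hspb6, best known from muscle, had a difference of -0.31 that was 0.01 on slide 1.

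Hspb7, Hspb9 and Hspb2 had differences above 0, which turned below 0 for Hspb7 and Hspb2 with a normexp background and for Hspb9 on slide 1. Hspb7, known from heart and muscle, was at -4.81, -3.62 and -3.49 on normal chow, where it was well above background on 2 of 3 arrays, and at -3.63, -2.52 and -2.64 on the high-Chol diet. The difference of 1.04 (SE 0.43, adjusted p = 0.232) has no exact size, since NC1 was not well above background, and it was 0.62 without NC1. HC1 lay at the level of NC2 and the slide 1 difference was 0.34. Hspb9, known from testis, was at -0.86, -0.89 and -0.71 on normal chow and at -0.98 on HC1, and stood at -0.07 and 0.08 only on the arrays of slide 2. Its slide 1 difference was accordingly -0.16. Hspb2 was at -4.20, -3.32 and -3.55 against -3.26, -3.59 and -3.08, with overlap, and was well above background on 2 of 3 normal chow arrays.

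The J proteins that hand clients to HSP70 in the cytosol belong to classes A and B. Dnaja1 was at 5.15, 5.71 and 5.81 on normal chow but at 4.84, 5.03 and 5.13 after the high-Chol diet. Its arrays did not overlap, although HC3 was just under NC1. The difference was -0.56 (SE 0.21, adjusted p = 0.206) and the slide 1 difference -0.72 (adjusted p = 0.549), and on slide 1, with HC1 as the single high-Chol array, only Dnaja1 and Hsp110 had an unadjusted p under 0.05 in limma (2 members lower, against 3.46% of all genes, and 0 higher, against 5.64%). After adjustment limma on slide 1 called 0 members, where it called 0.0658% of all genes higher and 0.0% lower. The other probes of Dnaja1 gave -0.45 and -0.26, both with overlap. Dnaja2 (0.00), Dnaja3 of the mitochondria (-0.16) and Dnaja4 (-0.07) differed by less than their standard errors.

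Of the class B genes, 6 of 9 were below 0, with a median of -0.36. Dnajb12, a J protein of the ER membrane that faces the cytosol, had the lowest p of all members. Its brightest probe, on chromosome 10 at 59417401 to 59417460, was at 2.88, 3.06 and 2.95 on normal chow but at 2.52, 2.18 and 2.29 after the high-Chol diet, so the diets lay well apart. The difference was -0.63 (SE 0.16, interval -1.0 to -0.26), or 1.55-fold, with an adjusted p of 0.096 in limma, and it was -0.44 on slide 1. Its second probe was at 0.76, 0.46 and 0.80 against 0.69, 0.25 and 0.13, which overlapped.

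Dnajb6, which holds back protein aggregation, was at 2.33, 3.34 and 2.73 on normal chow but at 2.26, 2.31 and 2.69 after the high-Chol diet, with a difference of -0.38 (interval -1.03 to 0.28), and its other probes gave -0.81 and -0.48. Its close relative Dnajb8 was dim and stood at -2.95, -2.97 and -2.85 on normal chow. It was at -2.79 on HC1 and at -4.57 and -4.64 on the arrays of slide 2, where it was not well above background. Its difference of -1.07 thus rests on 2 signals that were not well above background and has no exact size, and the slide 1 difference was 0.14. Dnajb13, known from sperm flagella, was at -3.93, -4.53 and -4.61 against -4.06, -3.76 and -3.58, a difference of 0.56 (adjusted p = 0.233), but it was well above background on 1 of 3 normal chow arrays, so that this difference has no exact size either. Its direction also turned, with 0.30 on slide 1 but -0.61 with a normexp background. Dnajb10 (current symbol Dnajb2) had a difference of -0.36 that was -0.03 on slide 1, and Dnajb5 one of 0.10 beside -0.33 and -0.49 from its other probes.

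A further set of J proteins serves Hspa5 (BiP), the HSP70 of the ER, and the brightest probe of each one named next had a negative difference. Dnajc3 (p58IPK), a lumenal co-chaperone of Hspa5, was at 4.07, 4.37 and 4.44 on normal chow but at 3.89, 3.59 and 3.78 after the high-Chol diet. The diets did not overlap, and the difference was -0.54 (SE 0.17, adjusted p = 0.158), with -0.40 on slide 1. It was negative for each of its 4 probes, at -0.17, -0.47, -0.49 and -0.54. Dnajb11 (ERdj3) was at 4.82, 4.54 and 4.57 against 4.40, 3.99 and 4.33, and Dnajc1 (ERdj1) at 3.02, 3.04 and 3.40 against 2.92, 2.51 and 2.77. Both were without overlap, with differences of -0.40 and -0.42 (adjusted p = 0.245 for each). Dnajc10 (ERdj5), which reduces disulfide bonds, had a difference of -0.26 with overlap, and its other probes gave -0.08, -0.10 and 0.22. Hspa5 itself, which is shared with the unfolded protein response, was at 6.33, 6.69 and 6.78 against 6.65, 6.19 and 5.82 (difference -0.38, adjusted p = 0.391, and 0.05 on slide 1), and Dnajb9 gave -0.20 (adjusted p = 0.754).

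Class C held 19 genes tested with diverse sites of action, of which 14 were below 0 with a median of -0.18. Dnajc5, the cysteine string protein of secretory vesicles, was at 2.96, 3.11 and 3.15 on normal chow but at 2.84, 2.58 and 2.41 after the high-Chol diet. The difference was -0.47 (SE 0.17, adjusted p = 0.192) without overlap, and its other probes gave -0.20 and -0.29 with overlap. Dnajc13, which acts on clathrin coats of endosomes, was at -0.03, 0.10 and 0.10 against -0.16, -0.43 and -0.44, a difference of -0.40 (adjusted p = 0.205). Dnajc4 was at 2.22, 2.42 and 2.39 against 2.20, 1.95 and 1.84, where HC1 and NC1 nearly met.

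Dnajc12, which binds the aromatic amino acid hydroxylases, was the other member without overlap in the higher direction. It was at 1.82, 1.97 and 1.94 on normal chow but at 2.14, 2.65 and 2.31 after the high-Chol diet. The difference was 0.46 (SE 0.18, adjusted p = 0.210), with 0.23 on slide 1. Dnajc2, which works at the ribosome, had probes of opposite direction. The brighter was at 0.67, 0.85 and 0.82 against 0.79, 0.36 and 0.17, while the other was at 0.33, 0.34 and 0.21 against 0.66, 0.53 and 0.40.

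Several class C genes differed little between the diets on their brightest probe. Dnajc9, a histone chaperone, lay between 2.09 and 2.29, with a difference of 0.07 (interval -0.25 to 0.39), Dnajc18 of the ER membrane gave 0.01 (-0.31 to 0.34), and Dnajc7, a partner of HSP70 and HSP90, gave -0.01 (-0.36 to 0.35). Dnajc8 also gave -0.01 (-0.42 to 0.41). For these 4 probes the interval stayed within 1.5-fold in either direction. The second Dnajc9 probe was dimmer and did not overlap, at -1.82, -1.84 and -1.93 against -1.67, -0.95 and -1.08 (difference 0.63), and the second Dnajc18 probe was also higher without overlap (0.23). Dnajc15 and Dnajc19, which act at the import motor of the mitochondrial inner membrane, gave -0.18 and -0.14, and the spots of the brightest Dnajc19 probe were left out as outliers on HC2 and HC3, so its value rests on HC1. The rest of the class (Dnajc5g, Dnajc11, Dnajc14, Dnajc16 and Dnajc17) lay between -0.21 and 0.05, with intervals that held 0.

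**Figure D4:**
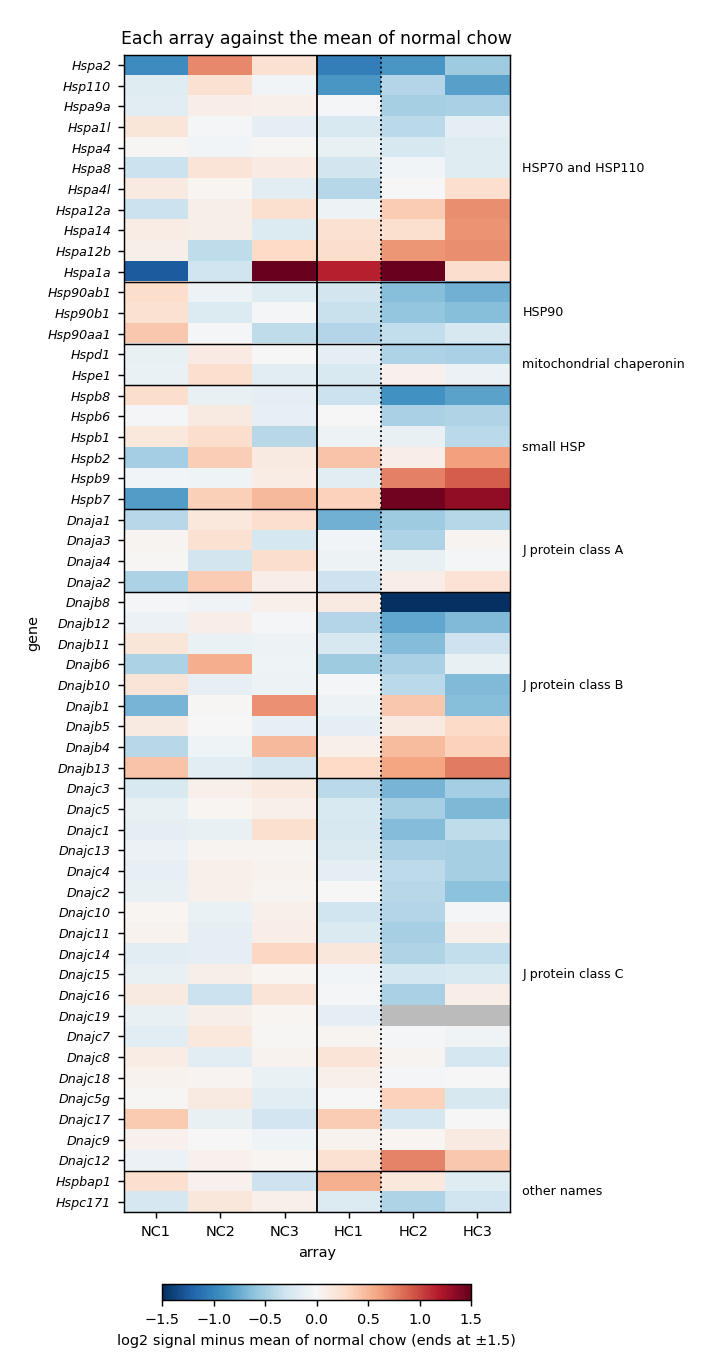
Log2 signal of each of the 56 genes (rows, grouped by family) minus its mean on normal chow, on the 6 arrays (columns), with blue below and red above that mean and grey where a spot was left out. The solid line parts the diets and the dotted line slide 1 from slide 2. HC2 and HC3 are blue over most of HSP90 and of the upper rows of each J protein class, HC1 is paler in most of those rows, and Dnajb8 is dark only on slide 2.

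The high-Chol values of 26 of the 55 members with 3 such values lay below the normal chow mean on each of the 3 arrays, and those of 9 lay above it on each. Of 102 member probes kept, 70 were below 0, and 9 of the 29 genes with several probes had probes of both signs. These counts only describe the members, since the matching shares over all genes and all probes are not given here. The names outside the families gave 0.17 (Hspbap1) and -0.32 (Hspc171), with overlap in both. A total of 5 members were not tested, since no diet had all its arrays well above background. Dnajb7 and Hspb3 were well above it on 0 arrays, Dnajb3 and Dnajc6 on 1 array of the high-Chol diet, and Dnajc5b on 3 arrays at most.

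The genes that work with the HSP70 and HSP90 machines were read from the same comparison. Of 20 co-chaperones, 18 were below 0, with a median of -0.20 (-0.15 on slide 1), and limma called 0 of them. At an unadjusted p under 0.05 it gave 2 lower, where 8.83% of all genes were lower, and 0 higher, where 12.3% were higher. Cdc37l1, a relative of the kinase co-chaperone Cdc37, was at 2.04, 2.20 and 1.94 on normal chow but at 1.53, 1.30 and 1.51 after the high-Chol diet (difference -0.61, adjusted p = 0.098). Fkbp5, an HSP90 co-chaperone that is induced by glucocorticoids, was at 0.93, 1.90 and 1.64 against -0.43, -1.66 and 0.80, a difference of -1.92 (SE 0.59, adjusted p = 0.152). Stip1, which links HSP70 to HSP90, gave -0.41, and Bag3, a heat-inducible exchange factor, gave -0.24 (SE 0.40) with NC3 the highest array at 3.35.

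Of the heat shock factors and their classic targets outside the families, 9 of 10 were tested, 5 were below 0 and the median was -0.01. At an unadjusted p under 0.05 limma gave 1 higher (12.3% of all genes) and 1 lower (8.83% of all genes). Hsf4, a heat shock factor known from the lens, was called lower after adjustment (1 of 9, where 0.227% of all genes were called lower), the only call among the lists of other chaperone and heat shock genes. It was dim, at -2.90, -2.68 and -2.49 on normal chow but at -3.71, -4.22 and -3.74 after the high-Chol diet, with a difference of -1.20 (SE 0.20, adjusted p = 0.031). This call was lost on slide 1 alone (-1.02), and it was lost when any array other than HC1 was left out. Hsf1, the main heat shock factor, was at 4.53, 4.63 and 4.72 on normal chow, at 4.51 on HC1 and at 6.13 and 5.72 on slide 2, so its difference of 0.83 was -0.12 on slide 1. Hmox1, heme oxygenase, was at 2.74, 2.65 and 2.69 against 3.68, 3.80 and 3.01, without overlap (difference 0.80, adjusted p = 0.128), while Serpinh1 (HSP47) gave 0.29 and Cryab -0.16.

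The genes of other folding machines were also mostly below 0, and limma called 0 of them. At an unadjusted p under 0.05 it gave 2 of 15 chaperonin or prefoldin, 1 of 11 mitochondrial and 5 of 15 ER folding genes lower (8.83% of all genes) and 0 higher (12.3% of all genes). Of the cytosolic chaperonin and prefoldin subunits, 14 of 15 were below 0 with a median of -0.15, which on slide 1 was -0.05 beside -0.06 for all genes, with the lowest values for Pfdn2 (-0.44) and Tcp1 (-0.40). Mitochondrial quality control gave 10 of 11 below 0 and a median of -0.18 (-0.12 on slide 1), with the protease subunit Afg3l2 at -0.54 and the unfoldase Clpx on the other side at 1.30 (SE 0.56). The ER folding genes gave 13 of 15 below 0 and the lowest median, -0.40 (-0.24 on slide 1). Of these, Hyou1, the HSP110 relative of the ER, gave -0.89 (adjusted p = 0.186) and the lectin chaperones Calr and Canx -0.32 and -0.20.

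**Figure D5:**
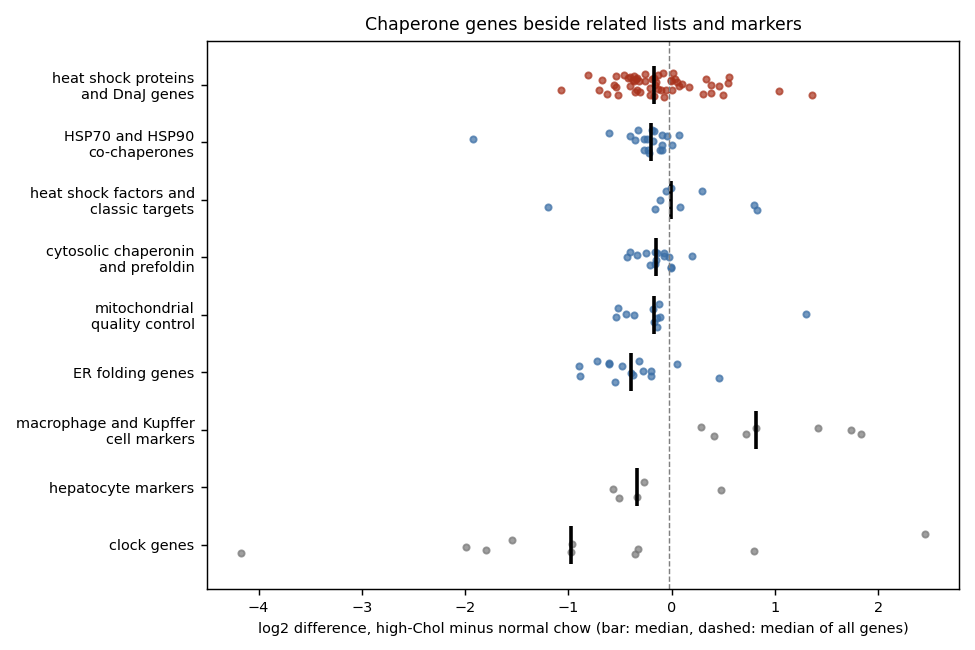
Log2 difference between the high-Chol diet and normal chow (x axis) for the genes of each list (y axis), with a dot for each gene, a bar at the median and a dashed line at the median of all genes. The medians of the heat shock proteins and DnaJ genes, co-chaperones, chaperonin, mitochondrial and ER lists lie between -0.15 and -0.40. The macrophage markers lie to the right of 0.

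Limma called markers of several other cell types higher on the high-Chol diet, where 2.69% of all genes were called higher and 0.227% lower. On slide 1 it called 0 of these markers (0.0658% of all genes higher). All 7 macrophage and Kupffer cell markers tested were above 0 and 3 of them were called (Cd68, Marco and Cd5l), and the mean level of the 6 with a value on each array was 2.52 to 2.76 in the control group but 3.69 to 3.82 in the high-Chol group. The neutrophil markers S100a8 and S100a9 were both called higher, while Ngp and Camp did not pass the filter on dim signals, and Ly6g was not matched to a probe here. All 5 T and NK cell markers were above 0 (median 0.89), with Nkg7 called, at a mean level of -3.30 to -2.92 against -2.49 to -1.81. However, Cd3g, Cd3d and Lck were well above background on only 2 of 3 normal chow arrays, so their differences have no exact size. The same holds for the mean level of these markers, and the difference of Cd3e was -0.34 on slide 1. Of the stellate cell and fibroblast markers, 5 of 6 were above 0 (median 0.41), with Col1a1 called, at -0.81 to -0.37 against -0.12 to 0.04. Limma called 0 of the endothelial, cholangiocyte, B cell, erythroid, muscle, hepatocyte and clock genes. The hepatocyte markers were below 0 in 4 of 5 genes, at a mean level of 7.23 to 7.45 against 7.08 to 7.18. Clock genes went both ways, with 8 of 10 below 0, a median difference of -0.97 and Arntl at 2.45. Their mean level was 0.65 to 0.75 on normal chow, -0.57 and -0.40 on HC1 and HC2 and 0.39 on HC3, which lay nearer to normal chow, as for Dbp, a target of the clock, with 6.57, 6.49 and 6.80 against 0.86, 0.86 and 5.64. The immediate early genes of tissue handling had a median difference of 0.80, at -1.70 to -0.73 against -0.37 to 0.12, with Atf3 called. In whole liver fewer cells of a type and less RNA per cell cannot be told apart, and the part of these differences in the chaperone values was not tested.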

How the data were processed

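Liver RNA from apoE-KO mice on normal chow or the high-Chol diet was measured on 6 one-color arrays, 3 per diet. The authors deposited spot intensity values extracted and background-subtracted by Agilent Feature Extraction (9.1 per the labels, 9.1 and 9.5 in the file headers), with 45018 spots per array, and 1 pooled log2 value per diet for 23458 probes, deposited after normalization and filtering by the authors, whose settings are not given in the sources used here. From the log2 intensity of a spot, that of the array's 75th percentile was subtracted. On each array 1639 control spots and 75 to 196 outlier spots were left out, and spots of a probe were averaged. Probes had to be well above background on each array of 1 diet or of both, and a gene was represented by its brightest probe. The comparison used lmFit and eBayes of limma (3.58.1, R 4.3.3), without covariates, with Benjamini-Hochberg adjustment over all 16725 genes and a threshold of 0.05. An exact permutation test of 3 against 3 arrays cannot go below p = 0.1.

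The members and lists were chosen with earlier results of these data known. Named genes were members called by limma, the 10 highest and 10 lowest with 6 values, the major chaperones and genes whose probes disagreed, and others were chosen after their values were seen. Alternatives were a normexp background (offset 50), median scaling, quantile normalization, no filter or one for all 6 arrays, the mean of probes, every probe by itself, each array left out, slide as a block, the methods' t-test and the authors' deposited values. Accessions of 95 of 121 member probes matched RefSeq, and promoter sequences are those of RefSeq. The limma code was also run on simulated data with known differences, drawn from the real means and spread. It called 1 of 66 true 1.5-fold changes, 13 of 69 true 2-fold changes and 51 of 65 true 4-fold changes. No call of a changed gene had the wrong sign, and 3 unchanged genes were called. The simulation held no slide effect. Precision is limited by having only 3 arrays per diet. The scripts ran in Python 3.11.15 (numpy 2.4.6, pandas 2.3.3, matplotlib 3.10.9), and R read the files with the data.table package, version 1.17.8.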

Additional observations from a re-analysis of the deposited data

How the results depend on the processing

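The count of members called was 0 in each direction under each setting that kept all 6 arrays, while leaving out 1 array at a time gave 0 to 1 called higher and 0 to 4 called lower. All of these calls came without high-Chol replicate 1 (HC1), where Dnajb12, Dnajb8, Dnajc5 and Hspb8 were called lower (4.56% of all genes) and Hspb9 higher (13.9% of all genes), and where diet and slide cannot be told apart. The count called in the other lists was 1 (Hsf4) and became 0 with a normexp background, quantile normalization, no filter on dim probes, slide as a block and the methods' t-test, and 0 to 5 when an array was left out (without normal chow replicate 1 the called gene was Herpud1). With a normexp background limma called 0 genes in all, and 0 members had an unadjusted p under 0.05. The t-test of the methods gave 1 member higher (8.4% of all genes) and 11 lower (8.31% of all genes) before adjustment (p under 0.05) and 0 after Benjamini-Hochberg adjustment. The median difference of the members was -0.43 in the authors' deposited values (54 members, where that of all genes was -0.28), -0.41 with median scaling, and -0.15 to -0.21 when an array was left out. Of 37 named genes, 19 kept their direction throughout. The difference took the other sign with a normexp background for Hspb7 (-0.38), Dnajb13 (-0.61), Hspa12b (-0.039), Hspb2 (-0.53), Hspa12a (-0.60), Hspa8 (0.14), Hspe1 (0.17), Dnajb1 (0.18), Dnajb5 (-0.40), Dnajc8 (0.27), Hspa4l (0.14), Dnajc19 (0.49) and Hspa4 (0.079). It did so with quantile normalization for Hspa12a (-0.038), Hspa8 (0.0053), Hspe1 (0.10), Dnajb1 (0.061), Dnajb5 (-0.11), Dnajc8 (0.089), Hspa4l (0.013) and Dnajc19 (0.013), and with slide as a block for Hspb9 (-0.16), Hspa12a (-0.078), Dnajb8 (0.14), Dnajb5 (-0.14), Dnajc8 (0.19), Dnajc14 (0.17) and Dnajc2 (0.011). The mean of the probes turned Dnajb5 (-0.24), Dnajc8 (0.011) and Dnajc14 (0.051), a filter for all 6 arrays turned Dnajc19 (0.049), and Dnajb5 was -0.14 with median scaling and -0.15 in the authors' values. Leaving out 1 array gave -0.16 to 0.045 for Hspe1, -0.45 to 0.24 for Dnajb1, -0.0027 to 0.21 for Dnajb5, -0.11 to 0.12 for Dnajc8, -0.21 to 0.13 for Hspa4l and -0.30 to 0.035 for Dnajc16. The cause was not tested. No paired analysis was possible because the titles number the replicates 1, 2 and 3 in both diets but do not say which array is which number. The replicate numbers used here only name the arrays of a diet.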
